A study of Mus musculus with 12 samples.

Results

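The genes followed here are 10 genes of extracellular proteolysis in tumor-associated macrophages (TAMs), namely the matrix metalloproteinases Mmp8, Mmp9, Mmp12, Mmp13, Mmp14 and Mmp19, the membrane protease Adam8, and the inhibitors Timp1, Timp2 and Timp3. They were chosen by name, with earlier results of these data known, from the 55401 genes of each of 2 count tables. Each symbol stands on a single row there, and all 10 had enough counts to be tested in both. The samples were bulk RNA of TAMs sorted from subcutaneous tumors of B16-F10, a mouse melanoma cell line, in C57BL/6 mice, with no treatment. In the first experiment 3 WT samples came from AMPKfl/fl mice and 3 AMPK-KO samples from AMPKfl/flLyz2cre/cre mice, both taken at day 15 according to the methods, so that both groups carried the floxed allele and cre was driven from the lysozyme 2 locus, which is active in myeloid cells generally. In the second experiment 3 early-stage samples (day 8) and 3 late-stage samples (day 15) came from mice of genotype WT. In the genotype labels, Lyz3 and Lyz4 stand in place of Lyz2 for AMPK-KO replicates 2 and 3. Neither labels nor methods say whether a sample was 1 mouse or a pool, so p-values measure only the spread between these samples.

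Matrix metalloproteinases are zinc enzymes that are made as inactive precursors and cut collagens, elastin, other matrix proteins and many cell surface and signaling proteins. Most are secreted, whereas MMP14 is anchored in the plasma membrane. The tissue inhibitors of metalloproteinases (TIMPs) block the active site by forming a tight complex with the enzyme. TIMP2 has a further role, because a complex of MMP14 and TIMP2 at the cell surface binds the precursor of MMP2 and lets a free MMP14 molecule activate it. Macrophages are a major source of these enzymes in tumors, where matrix remodeling accompanies vessel growth and invasion.

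Each library held 71019494 to 84470374 counts. Markers of macrophages were abundant in all 4 groups, with a summed expression of 13089 to 15682 CPM (counts scaled to library size, after scaling factors from trimmed means) over 10 genes. Prkaa1, which encodes the catalytic AMPK subunit α1, was lower in AMPK-KO than in WT TAMs (log2 fold change -0.60, SE 0.073, adjusted p = 2.3e-04 in edgeR's quasi-likelihood test, which also gives every adjusted p that follows), with 4959, 4535 and 5165 counts in WT and 3467, 3285 and 3297 in AMPK-KO samples. Lyz2, the locus that carries cre, had 671, 975 and 747 counts in the WT and 676, 879 and 1088 in the AMPK-KO samples, against 249165, 223019 and 204851 in the early-stage and 91724, 88212 and 93224 in the late-stage samples. The WT labels name no cre allele, and the Lyz2 counts did not separate WT from AMPK-KO samples. Counts of 4 Y-linked genes summed to 3435 to 4035 in each early-stage sample and 0 to 4 in each late-stage sample, and to 9229 to 12183 in the samples of the other experiment, so that sex and tumor stage cannot be told apart in any late-stage against early-stage difference. The methods name female mice, which the Y-linked counts of the early-stage, WT and AMPK-KO samples do not match.

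Levels of different genes were compared as CPM per kb of exon. In WT TAMs Adam8 was the highest of the 10, at 271 ± 5.0 CPM per kb (SD, n = 3), followed by Timp2 at 161 ± 2.32. Mmp19 (39.7 ± 1.13), Mmp14 (39.1 ± 1.50) and Mmp12 (38.5 ± 0.923) came next, and the ranges of neighbors in this order overlapped. Mmp13 (22.1 ± 1.08), Timp1 (14.5 ± 1.72), Mmp8 (6.89 ± 0.373), Mmp9 (5.44 ± 0.573) and Timp3 (0.695 ± 0.0384) followed without overlap. Adam8 and Timp2 ranked first and second and Timp3 last in every group, while the middle of the order changed. Mmp14 stood next after these in AMPK-KO TAMs at 63.1 ± 1.26 CPM per kb and in early-stage TAMs at 47.4 ± 3.04. Mmp12 stood there in late-stage TAMs at 62.3 ± 2.67, where Mmp19 (15.0 ± 0.857) overlapped Mmp8 (14.8 ± 2.30). Of the other 17 matrix metalloproteinase genes, 11 had enough counts to be tested in each experiment. Mmp27 (6.47 ± 0.452 CPM per kb in WT) and Mmp25 (3.06 ± 0.355) were the highest of these and near Mmp9. Mmp1a, Mmp1b, Mmp7, Mmp20 and Mmp21 had 0 counts in all 6 WT and AMPK-KO samples, which allows up to 3 counts in a library.

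**Figure D1:**
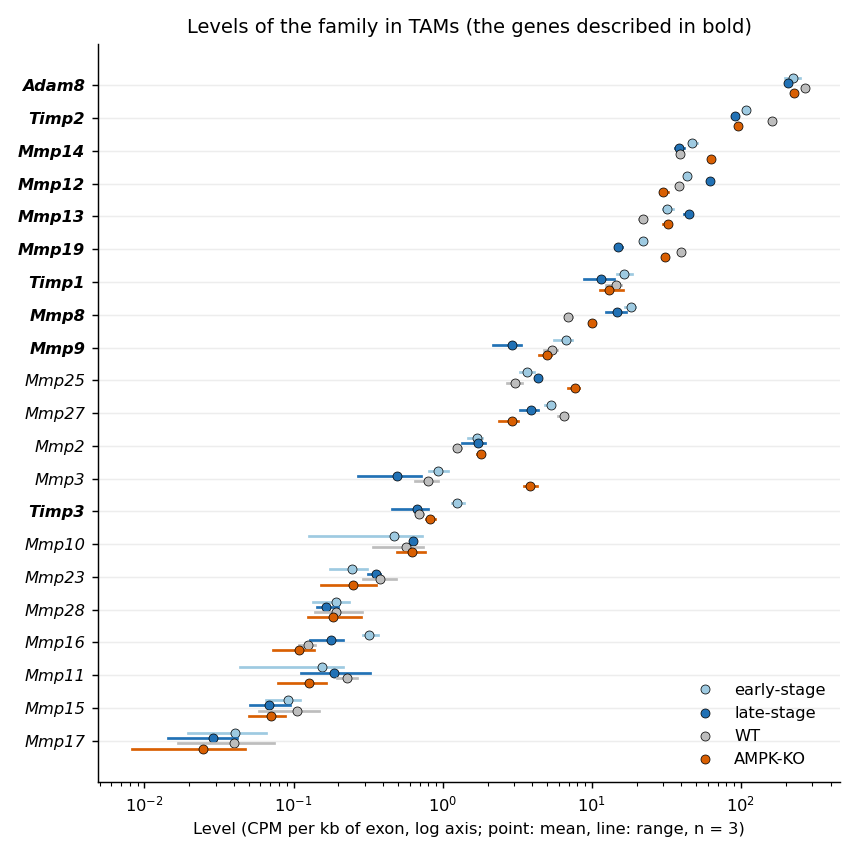
Expression of the matrix metalloproteinase, TIMP and Adam8 genes that had counts in every sample, as CPM per kb of exon on a log axis. Points are group means and lines the range of 3 samples, and Adam8 and Timp2 lie at the top in every group while Mmp3, Mmp25 and Mmp14 in AMPK-KO TAMs lie to the right of WT.

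Mmp13, Mmp12 and Mmp8 lie in a cluster of 10 metalloproteinase genes that spans 427 kb of chromosome 9, from base 7272514 to 7699585 of mouse build GRCm38 in GENCODE M21. Mmp13 (ENSMUSG00000050578.10) occupies chr9:7272514-7283331, Mmp12 (ENSMUSG00000049723.14) chr9:7344381-7369499 and Mmp8 (ENSMUSG00000005800.3) chr9:7558456-7568485, all on the plus strand. Mmp9 (ENSMUSG00000017737.2) is at chr2:164940780-164955850, Mmp14 (ENSMUSG00000000957.11) at chr14:54431612-54445364 and Mmp19 (ENSMUSG00000025355.7) at chr10:128790910-128800824. Adam8 (ENSMUSG00000025473.16) is at chr7:139978932-139992562, Timp1 (ENSMUSG00000001131.11) at chrX:20870166-20874735, Timp2 (ENSMUSG00000017466.9) at chr11:118301069-118355740 and Timp3 (ENSMUSG00000020044.13) at chr10:86300372-86349506. The counts are summed over all exons of a gene, and whether the counting used strand is not stated. Of exonic overlaps on the opposite strand, Timp3 shares 1733 bases with Syn3, whose counts were 0 to 37 in a library, and Mmp12 shares 157 bases with Mmp1b, which had no counts in the WT and AMPK-KO samples. Mmp19 shares up to 789 bases with Tmem198b, which had 737 to 1211 counts in a library and adjusted p = 0.298 and 0.873 in the AMPK-KO and stage comparisons, and 212 bases with Gm47093, which spans it and had 0 to 12 counts. Adam8 shares 46 bases with Gm16201, which had 139 to 282 counts in a library and was lower in AMPK-KO TAMs, like Adam8 itself (log2 fold change -0.64, adjusted p = 0.0276). Timp3 lies within Syn3, and Timp1 within Syn1, which is on the other strand and shares no exonic base with it, and Syn1 was lower in AMPK-KO TAMs (log2 fold change -0.44, adjusted p = 0.0407), so that unspliced Syn1 or Syn3 reads could not be separated from Timp1 or Timp3.

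The 150 bases before the transcription start of 4 of the genes are shown, because metalloproteinase promoters are known for sites of AP-1, the Fos and Jun dimer, and because these genes did not all move in the same direction. They are from RefSeq on GRCm38.p6, all on the plus strand, 5′ to 3′, and capitals mark the letters TGANTCA, which read the same on both strands. The second of 2 annotated starts is shown for Mmp12, and its window lies inside the gene but outside its annotated exons.
Mmp13, chr9:7272364-7272513: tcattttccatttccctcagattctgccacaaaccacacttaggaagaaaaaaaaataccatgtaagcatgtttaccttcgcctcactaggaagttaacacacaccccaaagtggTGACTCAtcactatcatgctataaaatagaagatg
Mmp12, chr9:7347224-7347373: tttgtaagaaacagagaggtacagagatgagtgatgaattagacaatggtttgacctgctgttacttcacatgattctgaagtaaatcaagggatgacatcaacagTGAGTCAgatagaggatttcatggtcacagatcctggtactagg
Mmp8, chr9:7558279-7558428: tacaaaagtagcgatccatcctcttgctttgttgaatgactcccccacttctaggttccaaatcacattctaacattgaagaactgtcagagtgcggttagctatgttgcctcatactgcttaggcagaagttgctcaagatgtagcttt
Mmp14, chr14:54431448-54431597: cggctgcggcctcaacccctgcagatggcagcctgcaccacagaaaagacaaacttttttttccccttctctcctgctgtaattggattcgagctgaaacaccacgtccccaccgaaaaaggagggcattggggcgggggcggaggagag
In windows of 300 bases, 250 before and 50 after the start, the letters TGANTCA occurred in 7.81% of 32851 mouse promoters. RefSeq entries were matched for 8 of the 10 genes (9 windows), and the letters were found in Mmp13, from position -35 to -29 before the start, and in the second Mmp12 window, from -44 to -38. They were not found in the first Mmp12 window or in those of Mmp8, Mmp14, Adam8, Timp1, Timp2 and Timp3. Of 7 AP-1 subunit genes, Fosl2 rose (0.35) and Jun (-0.37) and Fosl1 (-1.29, adjusted p = 0.0076) fell on the log2 scale in AMPK-KO TAMs, and Fosb rose (0.68, adjusted p = 0.0306) in late-stage TAMs. Of these, Fosl2, Jun and Fosb were named after their values were seen, and no link between these genes or letters and the levels of the 10 genes was tested.

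The AMPK-KO samples were set against WT to ask how deletion of AMPK changes the RNA of TAMs. In AMPK-KO TAMs the membrane-anchored collagenase Mmp14 and the secreted collagenases Mmp13 and Mmp8 rose, while the inhibitor Timp2, the elastase Mmp12, Mmp19 and Adam8 fell. The largest changes in each direction were those of Mmp14, 1.61-fold higher, and Timp2, 1.69-fold lower. Of the 10 genes, 7 had an adjusted p under 0.05, where 21.1% of all 17532 genes tested did. The 3 genes that rose compare with 11.3% of all genes and the 4 that fell with 9.78%. Because the genes were chosen with earlier results of these data known, these shares are not a test of the family. None of the 10 also passed a log2 fold change of 1 in size with edgeR, with an unadjusted p under 0.05 or with DESeq2 (0 genes each). Of all genes, 3.34% did with edgeR's adjusted p, and 731 of 20036 did with DESeq2. Beside shares this small, 0 of 10 is no contrast. The median log2 fold change of the 10 was -0.14, and that of all genes tested was -0.0037.

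Timp2 encodes the TIMP that works with MMP14 at the cell surface. Its level was 619, 628 and 638 CPM in WT samples 1 to 3 and 373, 375 and 367 CPM in AMPK-KO samples 1 to 3. All AMPK-KO samples were far below the lowest WT sample, and the means of 628 ± 9.05 and 372 ± 4.09 CPM (SD, n = 3) differed beyond their spread (log2 fold change -0.76, SE 0.040, adjusted p = 8.3e-07). Mmp14 went the other way, with 231, 243 and 225 CPM in WT and 369, 384 and 376 CPM in AMPK-KO samples. The groups did not overlap, and the mean rose from 233 ± 8.95 to 376 ± 7.53 CPM (log2 fold change 0.69, SE 0.047, adjusted p = 4.1e-06). In all, the groups did not overlap for 8 of the 10 genes, as they did not for 37.2% of all genes tested.

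Within each sample, the counts of Mmp14 were divided by those of Timp2, a ratio that does not depend on library scaling. It was 0.373, 0.386 and 0.353 in WT and 0.989, 1.03 and 1.02 in AMPK-KO samples, or 0.371 ± 0.0169 and 1.01 ± 0.0205 (SD, n = 3). The number of reads of Mmp14 thus came close to that of Timp2 in AMPK-KO TAMs. Every AMPK-KO sample was above every WT sample, which follows from the rise of Mmp14 and the fall of Timp2 without overlap and is no further result. Mmp13 to Timp2 went from 0.0942 ± 0.00360 to 0.232 ± 0.0120, and Mmp12 to Timp2 from 0.444 ± 0.0105 to 0.588 ± 0.0405. These ratios share the fall of Timp2 as denominator, and the second rose although Mmp12 itself fell, because Timp2 fell more. Mmp9 to Timp1 was 1.52 ± 0.277 in WT and 1.56 ± 0.260 in AMPK-KO TAMs, with overlapping samples. These are ratios of read counts and not of molecules or protein.

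**Figure D2:**
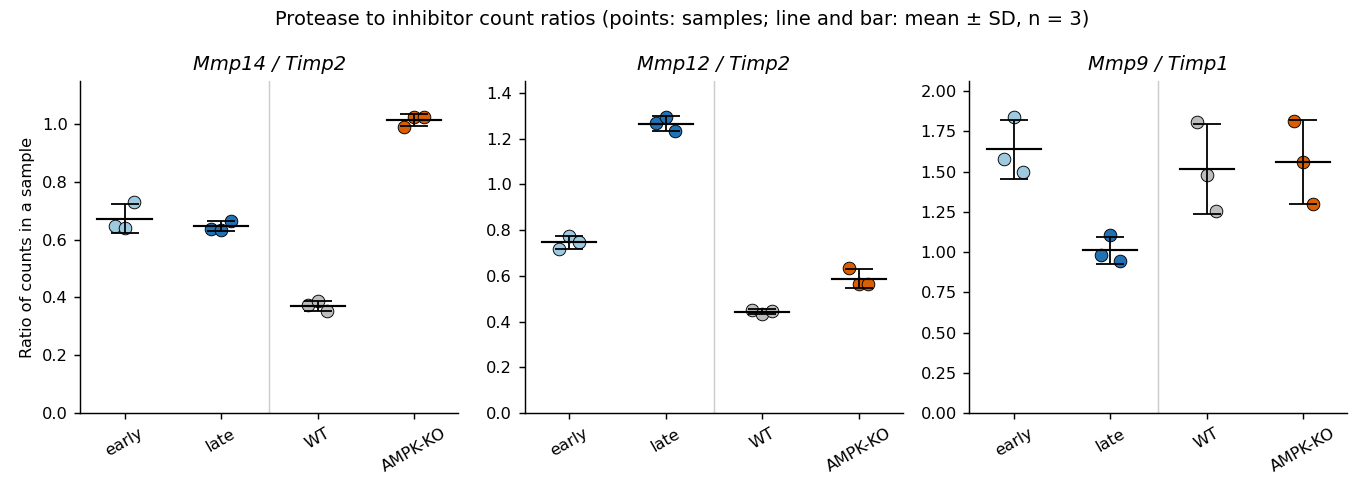
Ratio of the counts of a protease gene to those of an inhibitor gene within each sample, for the pairs Mmp14 and Timp2, Mmp12 and Timp2, and Mmp9 and Timp1. Points are samples, lines and bars the mean ± SD (n = 3), and the ratio of Mmp14 to Timp2 lies between 0.353 and 0.386 in WT and between 0.989 and 1.03 in AMPK-KO samples.

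Of the collagenase genes in the chromosome 9 cluster, Mmp13 and Mmp8 rose in AMPK-KO TAMs, and Mmp1a and Mmp1b had no counts and were not tested. Mmp13, which cuts fibrillar collagen, had 55.9, 61.0 and 60.7 CPM in WT and 91.2, 86.8 and 80.8 CPM in AMPK-KO samples, with no overlap (log2 fold change 0.54, SE 0.064, adjusted p = 1.9e-04). Mmp8, the collagenase first known from neutrophils, had 16.3, 16.1 and 17.7 CPM in WT and 24.3, 25.4 and 23.2 CPM in AMPK-KO samples. Every AMPK-KO sample was above every WT sample, and the size was almost that of Mmp13 (log2 fold change 0.54, SE 0.084, adjusted p = 0.0012). Mmp12, the macrophage elastase, lies next to Mmp13 in the cluster and fell. Its level was 281, 272 and 285 CPM in WT and 237, 212 and 207 CPM in AMPK-KO samples (log2 fold change -0.35, SE 0.058, adjusted p = 0.0016).

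Mmp19 and Adam8 fell by less than Timp2. Mmp19, a secreted enzyme that cuts basement membrane components, had 135, 142 and 143 CPM in WT and 106, 112 and 110.5 CPM in AMPK-KO samples (log2 fold change -0.36, SE 0.050, adjusted p = 5.8e-04). Adam8, a membrane protease of leukocytes that sheds surface proteins, had 1283, 1237 and 1257 CPM in WT and 1071, 1043 and 1033 CPM in AMPK-KO samples (log2 fold change -0.26, SE 0.038, adjusted p = 6.9e-04). The groups did not overlap for either gene, and the spread of Adam8 within a group was small beside its level.

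Mmp9, Timp1 and Timp3 did not pass the test. Mmp9, the gelatinase B gene, had 20.1, 20.7 and 16.9 CPM in WT and 18.5, 15.7 and 18.8 CPM in AMPK-KO samples, which overlapped (log2 fold change -0.12, 95% interval -0.37 to 0.12, adjusted p = 0.48). Timp1, the inhibitor that binds the precursor of MMP9, had 11.1, 14.0 and 13.5 CPM in WT and 10.2, 10.1 and 14.5 CPM in AMPK-KO samples (log2 fold change -0.15, 95% interval -0.50 to 0.19, adjusted p = 0.553). AMPK-KO replicate 3 was the highest of all 6 for Timp1 and the other AMPK-KO samples were the lowest. Timp3, the matrix-bound inhibitor, had 5.98, 5.64 and 5.36 CPM in WT and 6.53, 7.23 and 6.30 CPM in AMPK-KO samples, which did not overlap (log2 fold change 0.24, 95% interval -0.03 to 0.51, adjusted p = 0.209).

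**Figure D3:**
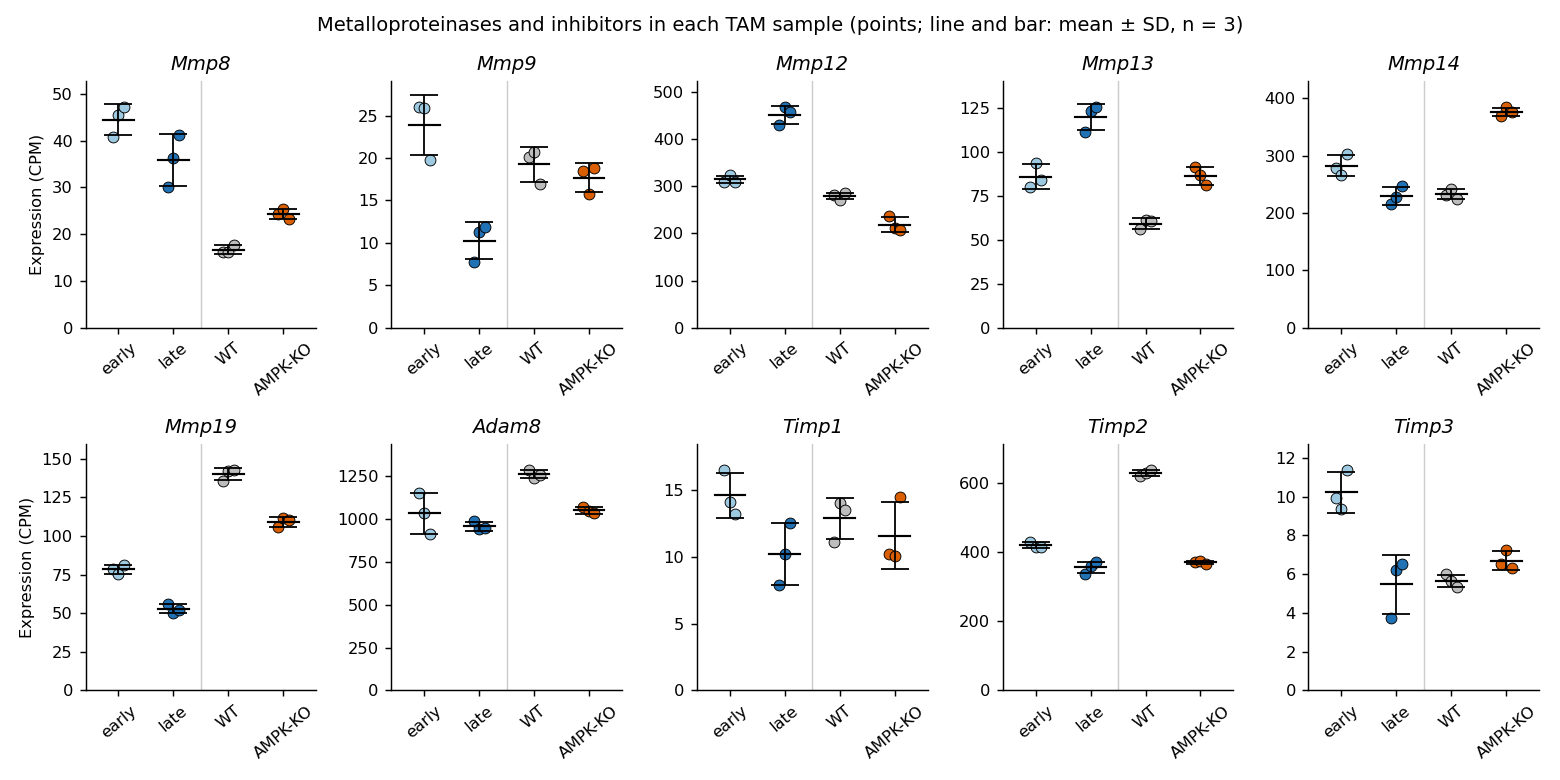
Expression of each of the 10 genes in CPM in every sample, with early-stage and late-stage TAMs left and WT and AMPK-KO TAMs right of the gray line in each panel. Points are samples, lines and bars the mean ± SD (n = 3), and the 2 experiments were scaled separately. Timp2 in AMPK-KO TAMs lies near 372 CPM against 628 CPM in WT, and Mmp9 in late-stage TAMs near 10.3 CPM against 23.9 CPM in early-stage TAMs.

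Of the 11 other metalloproteinases tested, Mmp3, Mmp25 and Mmp2 rose, Mmp27 fell and 7 did not pass, with a median log2 fold change of -0.20. Mmp3, stromelysin-1, which cuts many matrix proteins and activates other metalloproteinase precursors, rose from 1.67, 1.50 and 1.18 CPM to 6.32, 6.87 and 7.71 CPM (log2 fold change 2.27, SE 0.18, adjusted p = 1.2e-05). Mmp25, a membrane-anchored enzyme of leukocytes, rose from 16.2 ± 1.88 to 41.3 ± 3.85 CPM (log2 fold change 1.35, SE 0.10, adjusted p = 9.9e-06). Mmp27, the neighbor of Mmp8, fell from 14.3 ± 0.999 to 6.41 ± 0.983 CPM (log2 fold change -1.16, SE 0.13, adjusted p = 1.4e-04). Mmp2, whose precursor is activated through MMP14 and TIMP2, was named after its values were seen and rose from 4.23 ± 0.233 to 6.11 ± 0.339 CPM (log2 fold change 0.53, SE 0.13, adjusted p = 0.0157). Of the chromosome 9 genes with enough counts, Mmp13, Mmp3 and Mmp8 thus rose, Mmp12 and Mmp27 fell, and Mmp10 did not pass (log2 fold change 0.15, 95% interval -0.65 to 0.95).

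**Figure D4:**
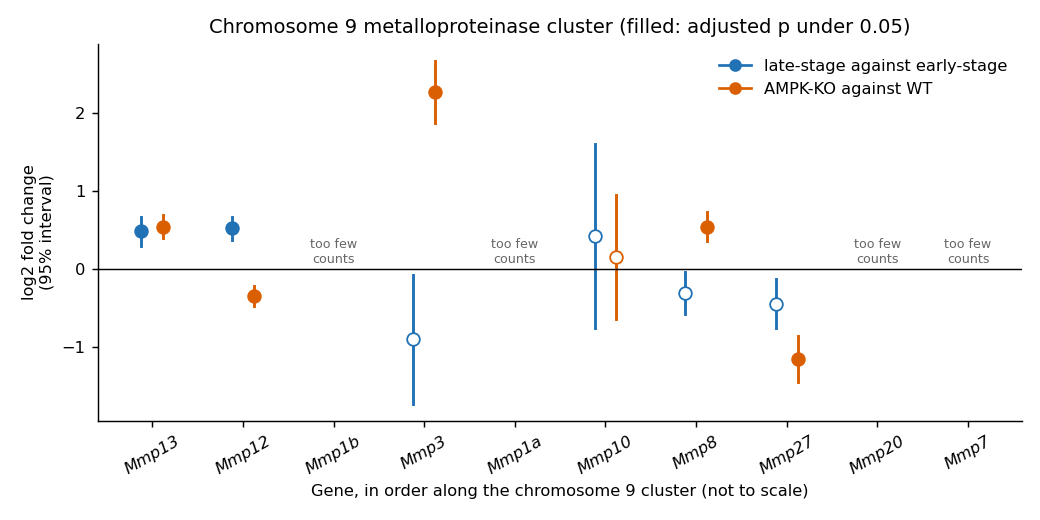
Log2 fold change with its 95% interval of the chromosome 9 metalloproteinase genes in their order along the cluster, for late-stage against early-stage and AMPK-KO against WT TAMs. Filled points had an adjusted p under 0.05, and in AMPK-KO TAMs some neighbors moved in opposite directions, Mmp13 (0.54) and Mmp12 (-0.35) as well as Mmp8 (0.54) and Mmp27 (-1.16).

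The genes around the proteases moved in part. In the plasminogen system, whose protease plasmin can activate metalloproteinase precursors, 2 of 7 genes tested rose and 2 fell. Plau, the urokinase activator, was named after its values were seen and fell from 535 ± 11.5 to 310.4 ± 7.55 CPM (log2 fold change -0.79, SE 0.043, adjusted p = 1.0e-06). Of 15 ADAM and ADAMTS genes tested, 3 rose and 2 fell, none past 2-fold. Of 6 activators and partners of metalloproteinases, 2 rose and 2 fell. Of 10 genes of matrix substrates, some of which are collagen genes that also count as fibroblast markers below, 3 rose and 2 fell. Of the other inhibitors (Timp4, Reck, A2m and Tfpi2) 2 were tested by edgeR and 0 passed, as with DESeq2 and at an unadjusted p under 0.05.

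Markers of other cells moved with these genes, and in bulk RNA more cells of a type and more RNA per cell cannot be told apart. The sort for CD45+CD11b+Ly6C-Ly6G-F4/80+ cells named in the methods was meant to remove fibroblasts, endothelial and melanoma cells, neutrophils and most lymphocytes. The supplementary legends instead write Ly6C+Ly6G+ for the gating strategy and Ly6G-Ly6C+ for the frequency of TAMs. The sources thus differ on whether Ly6G+ cells were removed. Fibroblasts, which also express Mmp14, Mmp3, Mmp2 and the TIMPs, had 6 of 8 markers higher in AMPK-KO TAMs and none lower, with a summed level of 596 to 642 CPM in WT and 766 to 855 CPM in AMPK-KO samples, and Pdgfra rose past 2-fold (log2 fold change 1.50, SE 0.34, adjusted p = 0.0106). Mmp14, Mmp3 and Mmp2 rose in AMPK-KO TAMs, Timp2 fell, and Timp1 and Timp3 did not pass. The part of fibroblasts in this was not tested. For neutrophils, which store MMP8, MMP9 and MMP25, 7 of 12 markers were tested, of which 3 rose and 1 fell. The sum of all 12 was 104 to 109 CPM in WT and 163 to 166 CPM in AMPK-KO samples, and Ly6g and Ngp had 0 counts in all 6 samples. S100a8 rose from 1.05 ± 0.241 to 2.10 ± 0.398 CPM and S100a9 from 0.697 ± 0.243 to 2.47 ± 0.456 CPM. These 2 genes were a small part of the sum, and the other marker that rose did so by less than 2-fold. The sum does not measure neutrophil content. All 7 NK cell and all 7 conventional dendritic cell markers, 6 of 7 T cell markers, 3 of 6 endothelial markers tested (with 1 lower) and 3 of 5 osteoclast-type markers tested were higher, with log2 fold changes of 1.37 for Prf1, 1.38 for Clec9a, 1.40 for Cd8a, 1.28 for Pecam1 and 1.63 for Dcstamp. Lower were 6 of 7 B16 melanoma markers (sum 998 to 999 CPM in WT and 676 to 716 CPM in AMPK-KO samples) and 4 of 5 B cell markers, such as Cd79a (-5.57), while the other B cell marker, Cd79b (named after its values were seen), was higher (0.39). Macrophage markers were 2 higher and 2 lower of 10. The part of these cells in the changes of the 10 genes was not tested.

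Late-stage samples were set against early-stage samples to follow TAMs as the tumor grows. In late-stage TAMs the elastase Mmp12 and the collagenase Mmp13 rose, while Mmp9, Mmp19, Timp3 and Mmp14 fell. Mmp9 fell most, to a level 2.32-fold lower. Of the 10 genes, 6 had an adjusted p under 0.05 (2 higher and 4 lower), where 9.18% of all 17630 genes tested did, 4.31% higher and 4.88% lower. Mmp9 alone also passed a log2 fold change of 1 in size, which 1.87% of all genes did. The groups did not overlap for 8 of the 10 genes and for 31.2% of all genes. Here too the choice of genes with earlier results known keeps these shares from being a test. The median log2 fold change of the 10 was -0.30, and that of all genes tested was 0.0027.

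Mmp12 had 309, 323 and 309.7 CPM in early-stage samples 1 to 3 and 429, 467 and 457 CPM in late-stage samples 1 to 3. Every late-stage sample was above every early-stage sample, and the mean rose from 314 ± 7.90 to 451 ± 19.3 CPM (SD, n = 3; log2 fold change 0.52, SE 0.067, adjusted p = 0.0013). Mmp13 had 80.2, 93.5 and 83.8 CPM in early-stage and 111, 123 and 125 CPM in late-stage samples, again without overlap (log2 fold change 0.48, SE 0.084, adjusted p = 0.007). Without late-stage replicate 2 or 3, the adjusted p of Mmp13 was 0.0521 and 0.0517. Mmp8, which lies farther along the cluster, did not pass, with 40.7, 45.4 and 47.1 CPM in early-stage and 30.1, 36.3 and 41.2 CPM in late-stage samples, which overlapped (log2 fold change -0.31, 95% interval -0.58 to -0.04, adjusted p = 0.144).

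Mmp9 had 26.0, 25.9 and 19.8 CPM in early-stage and 7.74, 11.3 and 11.8 CPM in late-stage samples. The lowest early-stage sample was well above the highest late-stage sample, and the mean fell from 23.9 ± 3.55 to 10.3 ± 2.22 CPM (log2 fold change -1.22, SE 0.18, adjusted p = 0.0025). Mmp19 fell as well, from 78.6, 75.3 and 81.1 CPM to 56.2, 50.2 and 52.3 CPM, without overlap (log2 fold change -0.57, SE 0.077, adjusted p = 0.0018). Mmp14 had 279, 266 and 302 CPM in early-stage and 216, 228 and 247 CPM in late-stage samples, and its small fall lay just inside the threshold (log2 fold change -0.29, SE 0.079, adjusted p = 0.0471). That call was lost without early-stage replicate 2 or 3 or any 1 of the late-stage samples, with an adjusted p of up to 0.183. Adam8 did not pass, with 1150.0, 1036 and 912 CPM in early-stage and 987, 939 and 945 CPM in late-stage samples (log2 fold change -0.11, 95% interval -0.30 to 0.08, adjusted p = 0.489).

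The fitted log2 fold changes of all 3 inhibitors were below 0 in late-stage TAMs, and Timp3 alone passed. Timp3 had 9.93, 9.35 and 11.4 CPM in early-stage and 3.74, 6.19 and 6.50 CPM in late-stage samples, with late-stage replicate 1 lowest (log2 fold change -0.90, SE 0.20, adjusted p = 0.0247). Its adjusted p rose to 0.0735 when early-stage replicate 2 was left out and to 0.0621 when late-stage replicate 2 was. Timp2 had 431, 416 and 414 CPM in early-stage and 338, 359.9 and 371 CPM in late-stage samples, which did not overlap (log2 fold change -0.24, 95% interval -0.39 to -0.09, adjusted p = 0.0547). Timp1 had 16.5, 14.1 and 13.2 CPM in early-stage and 7.87, 10.2 and 12.5 CPM in late-stage samples (log2 fold change -0.52, 95% interval -0.90 to -0.13, adjusted p = 0.0944). Timp2 passed when early-stage replicate 1 (adjusted p = 0.0445) or 3 (0.0385) was left out.

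The ratio of Mmp14 to Timp2 counts was 0.647, 0.640 and 0.730 in early-stage and 0.638, 0.634 and 0.665 in late-stage samples, which overlapped. Mmp12 to Timp2 rose from 0.747 ± 0.0290 to 1.27 ± 0.0320 (SD, n = 3) and Mmp13 to Timp2 from 0.204 ± 0.0192 to 0.336 ± 0.00650, without overlap. This separation follows from the non-overlapping levels of Mmp12, Mmp13 and Timp2 given above. For Mmp9 to Timp1 the ratio was 1.58, 1.84 and 1.50 in early-stage and 0.983, 1.11 and 0.945 in late-stage samples, each late-stage sample being lower.

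**Figure D5:**
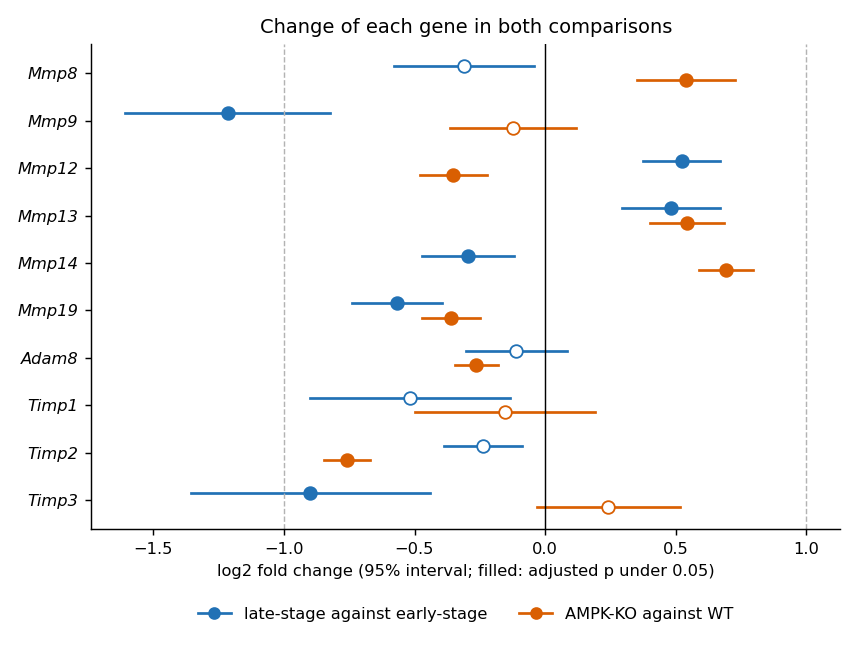
Log2 fold change of each of the 10 genes with its 95% interval for late-stage against early-stage and AMPK-KO against WT TAMs, with filled points for an adjusted p under 0.05 and dashed lines at a size of 1. Mmp9 in late-stage TAMs (-1.22) is the single point past a dashed line, and Timp2 (-0.76) and Mmp14 (0.69) lie farthest from 0 in AMPK-KO TAMs.

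None of the 11 other metalloproteinases tested passed edgeR's test in late-stage TAMs, while 3 had an unadjusted p under 0.05 and 2 passed with DESeq2. Their median log2 fold change was -0.22, and Mmp16 had the smallest adjusted p (0.0695, named after its values were seen). Mmp3 had 1.67 ± 0.253 CPM in early-stage and 0.894 ± 0.398 CPM in late-stage TAMs (adjusted p = 0.167), Mmp25 had 19.6 ± 2.18 and 23.1 ± 0.767 CPM (adjusted p = 0.212), and Mmp27 had 11.8 ± 0.897 and 8.69 ± 1.26 CPM (adjusted p = 0.0811). Tfpi2, a secreted inhibitor of serine proteases that is also reported to act on metalloproteinases, fell from 1.33, 1.25 and 1.29 CPM to 0.369, 0.262 and 0.642 CPM (log2 fold change -1.60, SE 0.40, adjusted p = 0.0362). Lcn2, the lipocalin that binds MMP9, fell from 2.75, 2.91 and 2.32 CPM to 0.428, 0.250 and 0.387 CPM (log2 fold change -2.90, SE 0.31, adjusted p = 4.6e-04) and was the 1 of 6 activators and partners that passed. Of the 15 ADAM and ADAMTS genes tested, 0 passed with edgeR, 4 had an unadjusted p under 0.05 and 1 passed with DESeq2. Genes of matrix substrates were lower for 6 of 10, with a summed level of 2000 to 2030 CPM in early-stage and 1107 to 1248 CPM in late-stage samples. That list shares collagen genes with the fibroblast markers below, so the values of these 2 lists are not separate observations.

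Some markers of neutrophils and fibroblasts, and most of those of melanoma cells, were lower in late-stage TAMs. Of 6 neutrophil markers tested 3 fell and none rose, with S100a8 at 168, 144 and 245 counts in early-stage and 12, 40 and 29 counts in late-stage samples (log2 fold change -2.78, SE 0.44, adjusted p = 0.0043), S100a9 also past 2-fold (-2.33) and Lcn2 as above. The sum of all 12 neutrophil markers was 76.5 to 90.2 CPM in early-stage and 65.5 to 80.7 CPM in late-stage samples, which overlapped. Fibroblast markers fell for 3 of 8, with a sum of 842 to 922 CPM in early-stage and 413 to 587 CPM in late-stage samples, lowest in late-stage replicate 1. That sample was also the lowest of the late-stage samples for 8 of the 10 genes, all but Mmp19 and Adam8. The share of all genes that were lowest in that sample was not counted, and a link to fibroblast content was not tested. B16 melanoma markers fell for 5 of 7 (sum 1663 to 1807 CPM in early-stage and 767 to 1203 CPM in late-stage samples). NK cell markers fell for 5 of 7 (Gzma -1.79), and of the conventional dendritic cell markers 1 rose and 1 fell (Cd209a -1.14). B cell markers were higher for 3 of 5 and T cell markers for 3 of 7, endothelial markers were 1 higher and 1 lower of 7, and of 5 osteoclast-type markers tested 1 rose and 2 fell (Ctsk -1.03, Dcstamp -1.82). Of 10 macrophage markers 1 rose and 2 fell, among them Lyz2 (-1.33). The part of these cells, and that of sex, in the changes of the 10 genes was not tested.

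WT and late-stage samples were both of day 15, but belonged to separate experiments that were scaled apart, so their levels are given side by side without a test. They also differed in the floxed allele, in Y-linked counts (9229 to 11360 in WT and 0 to 4 in late-stage samples) and in Lyz2 counts, as given above, and these cannot be told apart. Mmp19 was at 140.1 ± 3.99 CPM in WT and 52.9 ± 3.03 CPM in late-stage TAMs, the largest fold of the 10 (2.65). Mmp8 (16.7 ± 0.904 and 35.8 ± 5.59 CPM), Mmp13 (59.2 ± 2.88 and 119.9 ± 7.39 CPM) and Mmp12 (279 ± 6.68 and 451 ± 19.3 CPM) were higher in late-stage TAMs. Mmp9, Timp2 and Adam8 were higher in WT TAMs, and the samples of Mmp14, Timp1 and Timp3 overlapped. The ratio of Mmp14 to Timp2 counts was 0.371 ± 0.0169 in WT and 0.646 ± 0.0171 in late-stage TAMs, and 1.01 ± 0.0205 in AMPK-KO TAMs. This ratio thus also differed between day 15 groups without a deletion. For Mmp19, Mmp8, Mmp13, Mmp12, Timp2 (628 ± 9.05 and 356 ± 16.6 CPM) and Adam8, the fold between samples of the same day was larger than the fold change fitted within either experiment.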

How the data were processed

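TAMs were sorted by flow cytometry (CD45+CD11b+Ly6C-Ly6G-F4/80+ in the methods) and measured by bulk RNA-seq in 12 samples, 3 in each of 4 groups. Reads were mapped by the authors with HISAT2 and assigned to genes with featureCounts. The deposited values are raw counts, in 1 table for each experiment, and all columns were used. Versions of these tools, strand and the handling of multiply mapped reads are not given in the sources used here. Of 55401 identifiers, 54349 match GENCODE M21 of GRCm38 with their version, those of the 10 genes included, and coordinates are from it.

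Each table was fitted on its own. Genes were kept by filterByExpr, scaled by TMM and compared without covariates by the quasi-likelihood test of edgeR 4.0.16 in R 4.3.3, with Benjamini-Hochberg adjustment over all genes tested. Standard errors are the log2 fold change divided by the square root of F. CPM values use the TMM-scaled totals, and levels per kb divide them by the union of the exons. Differences between replicates of a group exceeded sampling noise in every pair of libraries (chi-square per degree of freedom 10.2 to 149). A count of 0 was taken to allow up to 3 counts, and such limits cover counting error only. The test was also run on simulated data with 200 genes changed by 2-fold or more, and the outcome is not reported here. Smaller changes, which include those of the 10 genes except the fall of Mmp9 in late-stage TAMs, were not simulated.

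The alternatives were RLE factors, DESeq2 1.42.0, at least 1 count in the table, at least 10 counts in every library, a block for the replicate number, and leaving out single libraries. The members and lists were chosen with earlier results of these data known. Genes named beside the 10 passed an adjusted p of 0.05 and a log2 fold change of 1 in size in either comparison (at most 5 for each list and comparison, of which some are given only in the counts), or are said to have been named after their values were seen. Single results of some listed genes are not reported here. Tables were handled with pandas 2.3.3 and figures made with matplotlib 3.10.9.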

Additional observations from a re-analysis of the deposited data

How the results depend on the processing

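In AMPK-KO against WT TAMs, each of the 10 genes kept its direction and its side of the threshold under all 11 alternatives (RLE factors, DESeq2, the 2 filters on low counts, the replicate block and each library left out), with 7 genes called and 0 past 2-fold in each. The number of all genes called ranged from 2414 of 18198 without WT replicate 3 to 4106 of 20036 with DESeq2. In late-stage against early-stage TAMs no gene changed direction, and 5 of the 10 genes kept their side of the threshold throughout. There, 6 genes were called with RLE factors, 8 with DESeq2, 4 with a filter of 1 count and 7 with 10 counts in every library. The calls over all genes were, in the same order, 1613 of 17630, 2414 of 15418, 936 of 27856 and 1787 of 15298. Leaving out a library gave 3 to 7 genes called and 1 to 2 past 2-fold. The calls over all genes moved too, from 653 of 18389 without late-stage replicate 2 (3 of the 10 genes) to 2835 of 18384 without early-stage replicate 1 (7 of the 10). Past 2-fold, 234 of 18327 genes were called without late-stage replicate 3. The 3 genes were those without late-stage replicate 2, where Mmp13 (adjusted p = 0.0521), Mmp14 (0.183) and Timp3 (0.0621) missed the threshold, and the 2 genes past 2-fold were Mmp9 and Timp3 (log2 fold change -1.04) without late-stage replicate 3. The cause was not tested. With the filter of 1 count Mmp14 (adjusted p = 0.0983) and Timp3 (0.0757) missed it, and with DESeq2 Timp1 (0.0302) and Timp2 (0.0198) passed. The median over all genes moved most with DESeq2, to a log2 fold change of 0.0265.

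Deviations of samples with the same replicate number had correlations near 0 (-0.0039 to 0.042 in WT and AMPK-KO, and 0.013 to 0.026 in the stages). With so few pairs, this cannot decide whether such samples shared more than a number. With the replicate block 7 genes were called in AMPK-KO against WT TAMs and 5 in late-stage against early-stage TAMs, where Mmp14 had an adjusted p of 0.0523. The calls over all genes with the block were 3862 of 17532 and 1417 of 17630. With 3 samples in a group, an interval that includes 0 does not show that a level stayed the same, and Timp3, Timp1 and Mmp9 had the fewest counts of the 10, down to 314, 661 and 650 in a library.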
